A study of Hormonema carpetanum with 4 samples.

Results

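The genes described here are those whose level set the wild-type strain of Hormonema carpetanum apart from its mutant in every mutant culture that was sequenced. H. carpetanum is a filamentous ascomycete that makes enfumafungin, a triterpene glycoside. A gene was a member when its wild-type value, as TPM plus 1, lay at least 4-fold above the highest or below the lowest of the 3 mutant values, and when it reached 10 TPM in some library. TPM is a transcript abundance corrected for gene length and scaled to a library total of 1000000. Of 10951 genes in the table, 7357 reached 10 TPM and were tested, and 863 of these were members, with 631 higher and 232 lower in all 3 mutant libraries. The background shares among the tested genes were therefore 8.58% higher and 3.15% lower. Since the rule used these very values, they describe the members and test nothing.

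RNA came from mycelium in fermentation broth, 1 library per group, so no value has a replicate error and no test between the strains was possible. The mutant ENF-5-29, a single strain, gave a library at day 14 with no temperature in its title and libraries at day 18 from 19 °C and from 25 °C. The wild type ATCC 74360 gave 1 library at day 14, also with no temperature in its title. The extraction protocol names 18 days for both strains, so the day in the titles is uncertain. Wild-type cultures at day 18 are not among the libraries, and what belongs to the strain cannot be told apart from what belongs to the single wild-type culture. In such bulk RNA, fewer cells of a type and less RNA per cell cannot be told apart either. Wherever 3 mutant values stand together, they come from day 14, from day 18 at 19 °C and from day 18 at 25 °C, in that order.

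Enfumafungin is built from squalene by a terpene cyclase fused to a glycosyltransferase, and cytochrome P450 enzymes, a hydroxylase and an acetyltransferase then decorate the skeleton. The product blocks beta-glucan synthase, the enzyme that spins the main polymer of fungal cell walls. Around such pathways a saprotrophic fungus also makes pigments (melanin, carotenoids), secretes enzymes that take plant walls apart, and tunes amino acid synthesis and ribosome production to growth. Gene names given here are those of the best database hit, and such a hit leaves the function in H. carpetanum unproven.

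The members were spread over the whole range of levels. The higher members summed to 17.3%, 15.2% and 15.3% of all TPM in the mutant libraries and to 1.16% in the wild type. The lower members summed to 1.01%, 0.962% and 0.985% of all TPM in the mutant libraries and to 11.9% in the wild type. A median higher member stood at 65.8, 53.3 and 72.0 TPM in the mutant libraries and at 4.45 TPM in the wild type, and a median lower member at 5.82, 4.91 and 4.62 TPM in the mutant libraries and at 81.8 TPM in the wild type. At 8-fold the rule kept 225 higher and 89 lower genes, and at 32-fold it kept 21 higher and 16 lower. All 3 mutant libraries listed 8 of the lower members at 0, and the wild type listed 43 of the higher members at 0. For those genes no fold is given. Folds given for other single genes are ratios of TPM without the added 1, so at low TPM they exceed the ratios that the rule used.

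**Figure D1:**
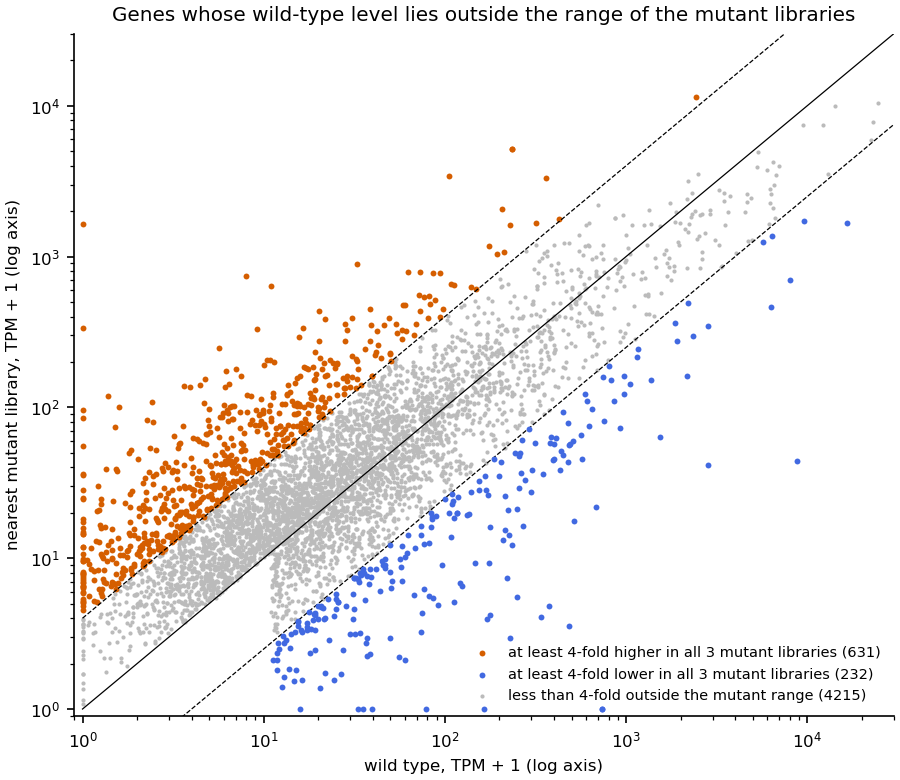
TPM plus 1 of each tested gene in the mutant library nearest to the wild type (vertical, log axis) against the wild-type library (horizontal, log axis), for genes whose wild-type value lies outside the mutant range. The solid line marks equal values and the dashed lines 4-fold; 631 genes lie above the upper line and 232 below the lower, at low and at high levels alike.

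Each mutant library on its own differed from the wild type at many more genes. At 4-fold, 21.4%, 14.7% and 21.5% of the tested genes were higher in the mutant libraries, and 5.49%, 7.64% and 8.44% were lower. The mutant libraries were set against the same wild-type library, so these shares are not independent. The deposited values were also shifted as a whole: over the tested genes, the mutant libraries had median log2 ratios of 0.77, 0.31 and 0.52 relative to the wild type. Dividing each library by its median ratio, which brings these medians to 0.04, 0.11 and 0.13, gave 453 higher and 389 lower members, so that 53.8% of members were higher, against 73.1% on the deposited scale. All 232 lower members and 452 of the 631 higher members met the rule on both scales, and the higher members that did not are marked below.

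At the threshold the members graded into their neighbours. Just inside on the higher side, the unnamed gene07112 had 44.4, 9.92 and 12.1 TPM in the mutant libraries and 1.73 TPM in the wild type, followed by hits to a histidine protein methyltransferase (gene06649) and to an ABC multidrug transporter (gene08769). These 3 genes missed the rule on the median-ratio scale. Just outside, a hit to the helicase swr1 (gene06578) had 11.4, 6.25 and 15.5 TPM in the mutant libraries and 0.82 TPM in the wild type, followed by hits to a peptidyl-prolyl isomerase (gene04231) and to vacuolar transporter chaperone 4 (gene03431). On the lower side the unnamed gene08962 lay just inside, at 1.83, 2.86 and 1.70 TPM in the mutant libraries and 14.4 TPM in the wild type, with the unnamed gene10075 and a GTP:AMP phosphotransferase hit (gene07551) after it. Just outside lay the unnamed gene07561, at 7.46, 4.25 and 2.68 TPM in the mutant libraries and 32.8 TPM in the wild type, with hits to an RNA polymerase I subunit (gene08411) and to a urea transporter (gene05569). The first gene on each side of the threshold thus differed little from its neighbour across it.

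Genes of enfumafungin synthesis were among the most abundant higher members. A run of 5 consecutive gene numbers, gene04131 to gene04135, consisted of members only. Enfumafungin synthase efuA (gene04134), the cyclase that forms the skeleton, had 2829, 1049 and 887 TPM in the mutant libraries and 31.7 TPM in the wild type. The P450 gene efuG (gene04133) had 9193, 5361 and 3437 TPM in the mutant libraries and 105 TPM in the wild type. Even the lowest mutant library was 28.04-fold above the wild type for efuA and 32.7-fold for efuG. At the end of the run lay gene04135, which has no name in the table and stood at 4733, 6166 and 3316 TPM in the mutant libraries and at 362 TPM in the wild type. It alone of the run was highest at 19 °C, whereas the hydroxylase or desaturase efuI (gene04131), the P450 efuH (gene04132), efuG and efuA were all highest at day 14 and lowest at 25 °C.

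The genes next to the run were not members. On one side the self-resistance gene efuJ (gene04130) had 921, 90.1 and 1787 TPM in the mutant libraries and 71.6 TPM in the wild type, so only the 19 °C library kept it outside the rule. On the other side gene04136, with a fungal transcription factor domain, had 184, 202 and 138 TPM in the mutant libraries and 87.1 TPM in the wild type. Further out, the acetyltransferase efuC (gene04141) was a member, at 46.0, 30.7 and 36.0 TPM in the mutant libraries and 1.15 TPM in the wild type. A hydrolase hit with a nearby number (gene04126, YcaC of Escherichia coli) was also a member, but missed the rule on the median-ratio scale. Away from the cluster, an efuB hit (gene05027) was a higher member, at 466, 350 and 275 TPM in the mutant libraries and 27.1 TPM in the wild type. An efuE hit (gene08787) was a lower member, at 5.83, 6.37 and 4.71 TPM in the mutant libraries and 30.6 TPM in the wild type.

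Few members lay among genes that make the triterpene precursor. For terpenoid backbone synthesis, the pathway that makes the isoprene units, 1 of 22 tested genes, or 4.55%, was higher and 0 were lower. The shares of all tested genes were 8.58% and 3.15%, and lists of this size hold few members at such shares. By any amount, 11 of the 22 lay above the wild type in all 3 mutant libraries, beside 47% of all tested genes. The higher member was a geranylgeranyl pyrophosphate synthase hit (gene09063), at 55.2, 32.9 and 31.0 TPM in the mutant libraries and 6.46 TPM in the wild type. It missed the rule on the median-ratio scale. Of 23 tested genes of steroid synthesis, which shares squalene with enfumafungin, 0 were members, beside the same shares of all tested genes. On the median-ratio scale 2 of these 23 were lower, beside 389 of all 7357 tested genes. The median log2 ratio of the steroid list, taken over the middle of the 3 mutant libraries for each gene, was 0.10, beside 0.55 for all tested genes. The gene for the drug's target, the glucan synthase FKS1 (gene05336), was no member either, with 93.3, 104 and 311 TPM in the mutant libraries on both sides of the 211 TPM in the wild type.

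**Figure D2:**
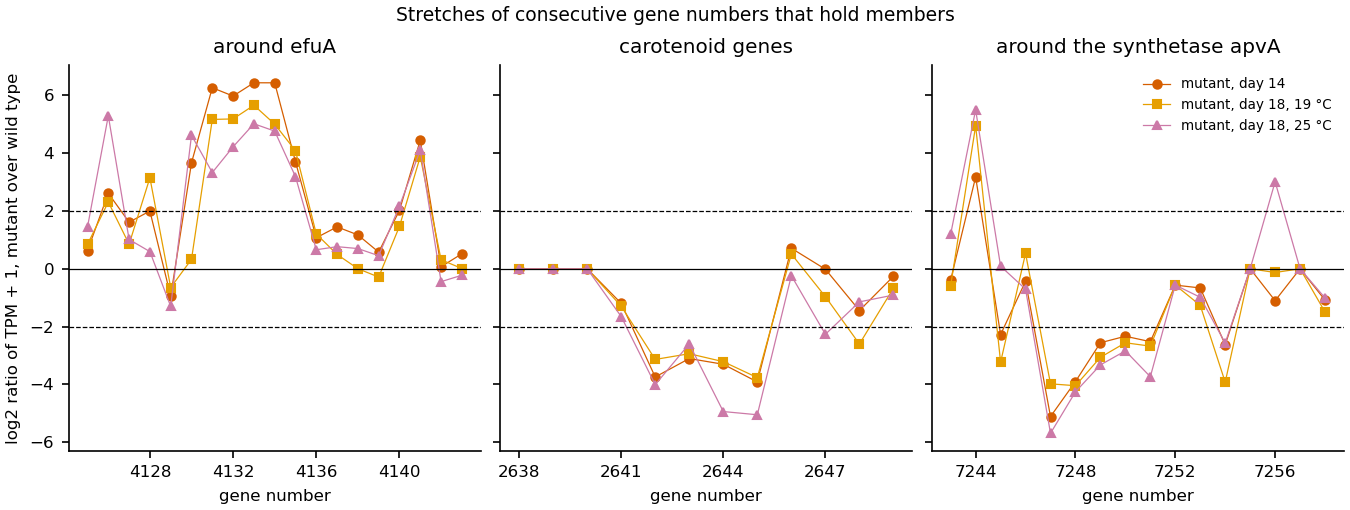
Log2 ratio of TPM plus 1, mutant over wild type, by gene number for the genes around efuA, the carotenoid genes and the genes around the peptide synthetase hit apvA; colours and shapes give the 3 mutant libraries. Dashed lines mark 4-fold, and gene04131 to gene04135, gene02642 to gene02645 and gene07247 to gene07251 lie beyond them in all 3 libraries.

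Carotenoid synthesis formed the counterpart on the lower side. Carotenoids are made from geranylgeranyl pyrophosphate by phytoene synthase and phytoene desaturase, and cleavage of the product yields retinal, the chromophore of opsins. The consecutive genes gene02642 to gene02645 were all lower members, with hits to both synthesis enzymes, a carotenoid cleavage enzyme and an opsin-like protein. The name of the gene02642 hit is cut short, so whether its enzyme yields retinal is not known here. The hit to a lycopene cyclase and phytoene synthase (gene02643, best hit in Leptosphaeria maculans) had 54.5, 61.3 and 77.8 TPM in the mutant libraries and 477 TPM in the wild type. Phytoene desaturase (gene02644, Cercospora nicotianae) had 75.0, 79.9 and 23.4 TPM in the mutant libraries and 750 TPM in the wild type. The carotenoid cleavage dioxygenase hit (gene02642) had 28.6, 44.1 and 23.6 TPM in the mutant libraries and 396 TPM in the wild type. These 3 enzyme genes were lower by at least 6.13-fold, 9.39-fold and 8.98-fold even in the mutant library nearest to the wild type.

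The fourth gene of the run carries a bacteriorhodopsin-like domain. This FDD123 hit (gene02645, Trametes versicolor) had 416, 462 and 189 TPM in the mutant libraries and 6298 TPM in the wild type. A second gene with the same domain, hit to Opsin-1 of Neurospora crassa (gene09552), lay the other way, at 2816, 1575 and 1056 TPM in the mutant libraries and 725 TPM in the wild type, and was no member. Of the 7 tested genes in the carotenoid and opsin list, 4, or 57.1%, were lower members, the run itself, and 0 were higher. The shares of all tested genes were 3.15% and 8.58%, and the list holds few genes.

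Pectin-degrading enzymes were the other group with a large share of lower members. These secreted enzymes cut the pectin of plant cell walls: polygalacturonases and lyases cut its chain, and pectinesterases remove methyl groups. Of 19 tested genes 8, or 42.1%, were lower members and 1 was higher, beside 3.15% and 8.58% of all tested genes, and the median log2 ratio of the list was -1.96. A polygalacturonase (gene08871, Cochliobolus carbonum) had 43.0, 14.5 and 18.0 TPM in the mutant libraries and 8803 TPM in the wild type, where it was among the most abundant lower members. A pectinesterase (gene00372, Aspergillus aculeatus) had 1.52, 2.53 and 0.32 TPM in the mutant libraries and 483 TPM in the wild type. In TPM the mutant library nearest to the wild type was thus lower by 204.9-fold for the first and by 191-fold for the second. On TPM plus 1 the log2 ratios were -7.65 and -7.10.

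The remaining lower pectin genes were 2 rhamnogalacturonan enzymes (gene03663, gene09373), a pectin lyase (gene07956) and 3 more polygalacturonases (gene02123, gene06412, gene10082). Polygalacturonase 2 (gene06412) kept a sizeable level in the mutant libraries, at 216, 128 and 137 TPM, against 1148 TPM in the wild type. Endopolygalacturonase A (gene10082) differed most among the mutant libraries, at 26.0, 150 and 0.18 TPM, against 822 TPM in the wild type. The exception in direction was a pectin lyase-like protein (gene08681), at 36.9, 73.9 and 222 TPM in the mutant libraries and 3.39 TPM in the wild type.

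Other plant polysaccharide and cutin enzymes did not share the pattern: 3 of 70 tested genes were higher and 4 lower, near the background. Among the lower ones a xyloglucanase (gene00370), whose number lies next but one to the pectinesterase, had 44.3, 23.4 and 31.2 TPM in the mutant libraries and 572 TPM in the wild type. It was lower by 12.9-fold in the nearest mutant library.

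**Figure D3:**
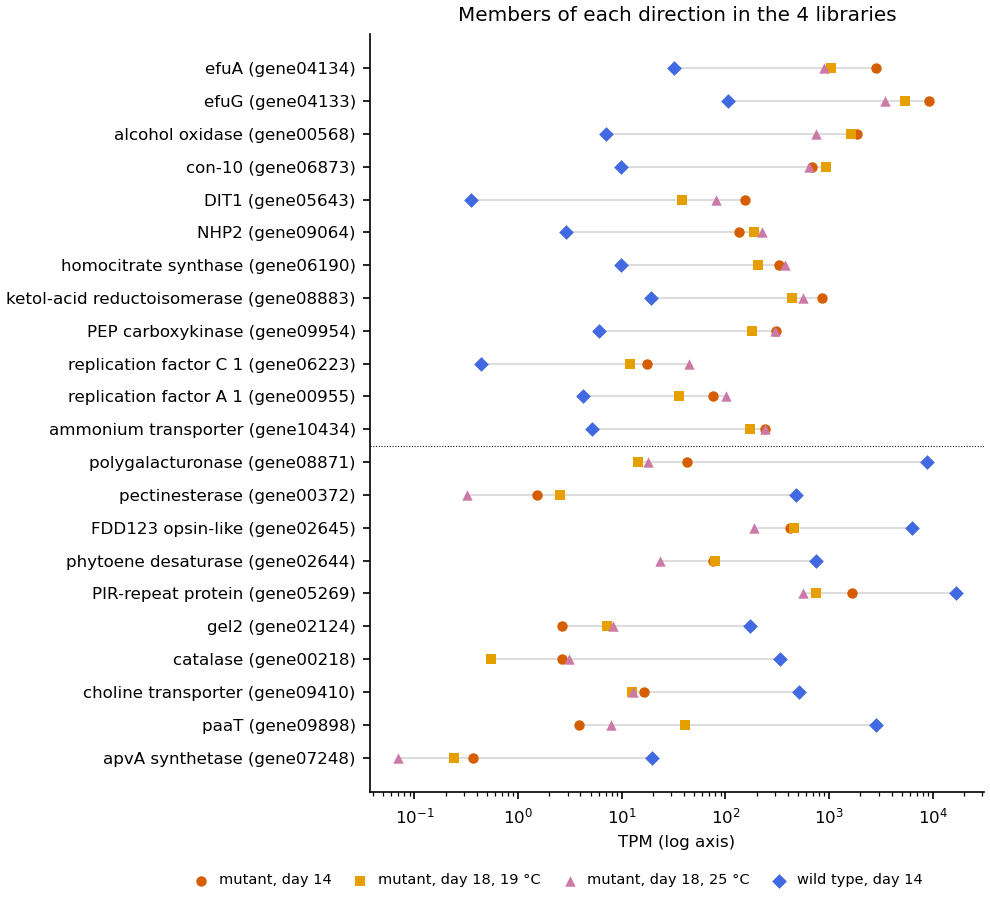
TPM of 22 members in each library on a log axis, higher members above the dotted line and lower members below it, with a symbol for each library. The wild-type symbol lies outside the 3 mutant symbols in every row; polygalacturonase (gene08871) and alcohol oxidase (gene00568) show gaps of more than 100-fold.

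Genes of the fungal cell wall list went both ways. Of 38 tested genes 4, or 10.5%, were higher and 5, or 13.2%, lower, beside 8.58% and 3.15% of all tested genes. On the lower side were the glucan-remodelling hits gel2 (gene02124), gel3 (gene09719) and sun1 (gene00078), all with best hits in Neosartorya fumigata, where gel proteins elongate beta-glucan chains. The gel2 hit had 2.68, 7.20 and 8.23 TPM in the mutant libraries and 173 TPM in the wild type. A sensor hit of the cell wall integrity pathway, known from Saccharomyces cerevisiae (gene04637), had 95.6, 157 and 188 TPM in the mutant libraries and 799 TPM in the wild type. The fifth was named a chitin-binding domain protein (gene08508). Its listed domain is a cellulose-degrading lytic polysaccharide mono-oxygenase, so it may not act on the fungus's own wall. On the higher side were chitin synthase A (gene08947, lost on the median-ratio scale), a chitin synthase regulator (gene07516), a family 18 chitinase (gene09758) and a glycine-rich wall protein (gene00698).

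Outside that list, the most abundant lower member of all was gene05269, which has no name but carries the repeat of yeast PIR proteins, a family bound covalently to the wall. It had 1669, 740 and 562 TPM in the mutant libraries and 16625 TPM in the wild type. A GPI-anchored surface protein hit (gene04641) followed the same direction, with 990, 793 and 1247 TPM in the mutant libraries and 5722 TPM in the wild type. In both cases the 3 mutant values lay closer to each other than any lay to the wild type.

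Some spore-wall and conidiation genes were higher members. In S. cerevisiae DIT1 and DIT2 make dityrosine, a cross-linked layer of the ascospore wall, and Dtr1 exports its precursor. Hits to all 3 lay within 4 gene numbers. The DIT1 hit (gene05643) had 155, 37.9 and 80.8 TPM in the mutant libraries and 0.35 TPM in the wild type. DIT2, a cytochrome P450 (gene05642), had 98.3, 36.3 and 107 TPM in the mutant libraries and 1.34 TPM in the wild type, and the dityrosine transporter (gene05640) had 205, 85.5 and 188 TPM in the mutant libraries and 4.75 TPM in the wild type. All were lowest at 19 °C among the mutant libraries and still above the wild type by at least 18.0-fold there.

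The hit to con-10 of N. crassa (gene06873), a small protein that accumulates in conidia, had 688, 924 and 635 TPM in the mutant libraries and 9.91 TPM in the wild type. With it, 4 of the 8 tested sporulation genes, or 50%, were higher members and 0 were lower, beside 8.58% and 3.15% of all tested genes. Of the other 4 genes, 2 lay above the wild type in all 3 mutant libraries, 1 lay below it and 1 had the wild type within the mutant range. The conidiation regulator abaA (gene06725) stayed at 3.75, 4.55 and 1.89 TPM in the mutant libraries and 1.05 TPM in the wild type, under the level needed to be tested.

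Some melanin genes were higher members. Fungal melanin of the DHN type arises when a polyketide synthase makes a naphthol that reductases and scytalone dehydratase convert and laccases polymerize. A polyketide synthase hit to PKS1 of Zymoseptoria tritici (gene01398) had 82.6, 35.2 and 118 TPM in the mutant libraries and 1.54 TPM in the wild type. The naphthol reductase hit (gene01401), 3 gene numbers away, had 545, 552 and 349 TPM in the mutant libraries and 38.0 TPM in the wild type. Scytalone dehydratase (gene06769) had 1291, 902 and 557 TPM in the mutant libraries and 71.0 TPM in the wild type. The melanin, laccase and tyrosinase list, which counts the polyketide synthase elsewhere, held 12 tested genes. Of these the reductase, the dehydratase and 2 Laccase-3 hits (gene01900, gene09143) were the 4 higher members, and a tyrosinase-like hit to orsC (gene02664) was the 1 lower member. The shares were 33.3% and 8.33%, beside 8.58% and 3.15% of all tested genes, and of the 12 genes 8 lay above the wild type in all 3 mutant libraries, 2 lay below it and 2 had the wild type within the mutant range.

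DNA replication held one of the largest shares of higher members. Replication factor C loads the sliding clamp, replication factor A coats single strands, the MCM proteins unwind the helix, and primase starts each new strand. Of 31 tested genes, 13, or 41.9%, were higher and 0 lower, beside the background of 8.58%, and 28 of the 31 lay above the wild type in all 3 mutant libraries by some amount, as did 47% of all tested genes. All 5 replication factor C subunit hits were members (gene06223, gene07688, gene05434, gene07695, gene05920), as were both primase subunits (gene00818, gene07663), mcm4 (gene00534), mcm7 (gene04329), flap endonuclease 1 (gene00464), DNA ligase 1 (gene10892) and DNA polymerase delta subunit 4 (gene06884). On the median-ratio scale 10 of the 31 were higher members, beside 453 of all 7357 tested genes. Replication factor C subunits 3 and 4 (gene05434, gene07695) and the ligase were lost there.

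Levels of the members in this group were low in the wild type, but the rule selects higher members for that. Over all higher members the wild-type median was 4.45 TPM. Replication factor C subunit 1 (gene06223) had 17.6, 12.0 and 44.3 TPM in the mutant libraries and 0.44 TPM in the wild type. Replication factor A subunit 1 (gene00955) had 75.0, 35.6 and 101 TPM in the mutant libraries and 4.19 TPM in the wild type, while its partner subunit 2 (gene06955) had 125, 160 and 208 TPM in the mutant libraries and 41.2 TPM in the wild type and was no member. The sliding clamp itself, PCNA (gene07427), was no member either, at 107, 64.7 and 98.5 TPM in the mutant libraries and 38.3 TPM in the wild type.

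The mismatch repair list gave 8 higher members of 18 tested genes, but these 8 were the replication factor, polymerase and ligase genes that the lists share, and hits to the msh and MLH mismatch proteins were not members. A separate repair gene, uracil-DNA glycosylase (gene01394), which removes uracil from DNA, had 150, 135 and 119 TPM in the mutant libraries and 7.13 TPM in the wild type. The histone chaperone asf1 (gene00222), which hands new histones to replicated DNA, had 101, 96.2 and 286 TPM in the mutant libraries and 3.98 TPM in the wild type.

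**Figure D4:**
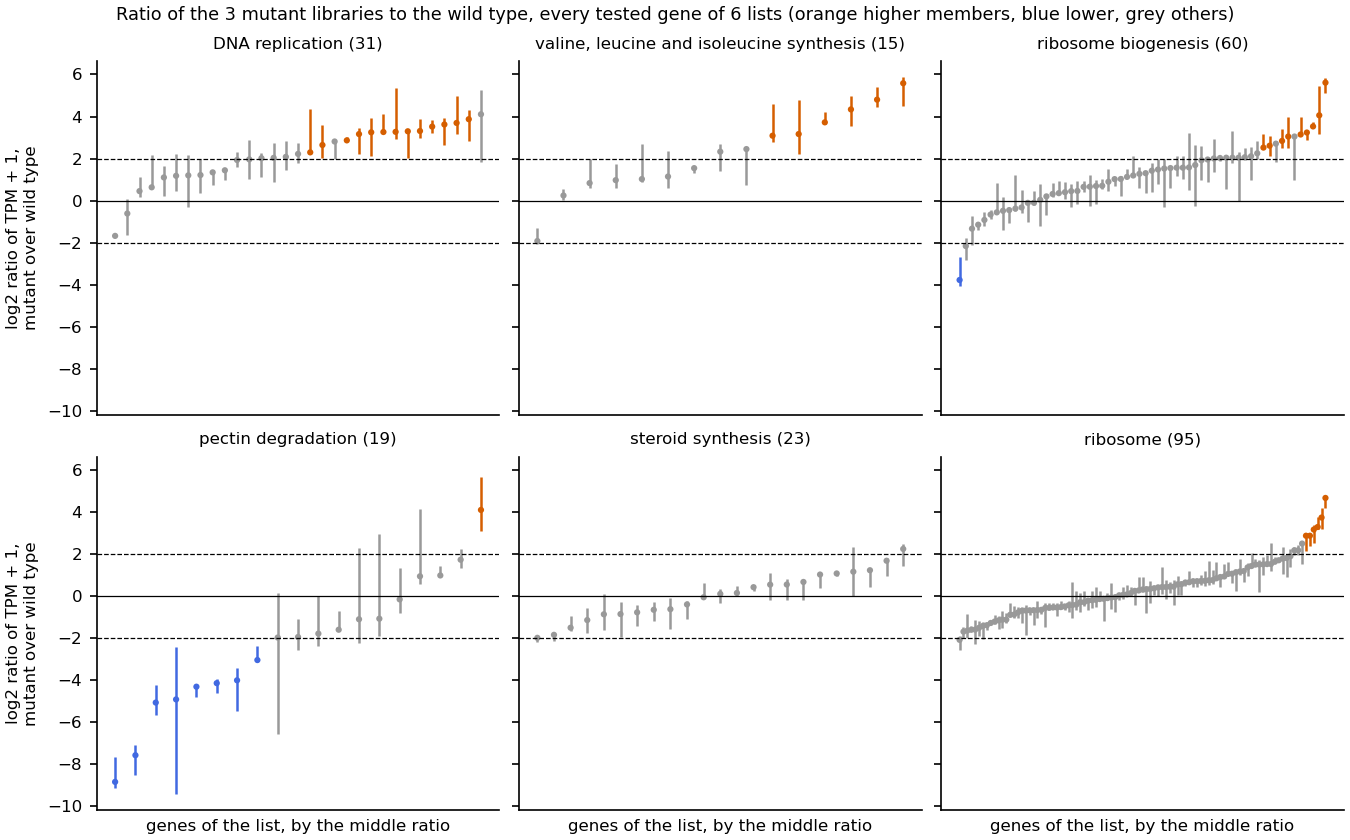
Log2 ratio of TPM plus 1, mutant over wild type, for every tested gene of 6 lists, ordered by the middle of its 3 mutant ratios; a line spans the 3 ratios and the point marks the middle one. Replication and branched-chain amino acid genes lie mostly above 0, pectin genes mostly below, and the steroid and ribosome lists straddle 0.

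Some genes of amino acid synthesis were higher members at consecutive steps of the branched-chain and lysine routes. The functional class of amino acid transport and metabolism as a whole lay near the background. Of its 256 tested genes 21, or 8.20%, were higher and 10, or 3.91%, lower, beside 8.58% and 3.15% of all tested genes. For valine, leucine and isoleucine, 6 of 15 tested genes, or 40%, were higher and 0 lower. The list median log2 ratio was 2.33 beside 0.55 for all tested genes. The first common enzyme, acetolactate synthase (gene08733, catalytic subunit), had 194, 113 and 305 TPM in the mutant libraries and 8.65 TPM in the wild type. The next, ketol-acid reductoisomerase (gene08883), had 848, 433 and 561 TPM in the mutant libraries and 19.2 TPM in the wild type. Dihydroxy-acid dehydratase hits of the third step (gene04107, gene03740) and the leucine genes for 3-isopropylmalate dehydratase (gene04412) and dehydrogenase (gene06698, lost on the median-ratio scale) completed the members. The small, regulatory subunit of acetolactate synthase (gene06799) was not among them, at 129, 87.8 and 103 TPM in the mutant libraries and 86.8 TPM in the wild type.

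Fungi make lysine through alpha-aminoadipate, and the opening enzymes of that route were members. Of 12 tested lysine genes 3, or 25%, were higher and 1, or 8.33%, lower, beside 8.58% and 3.15% of all tested genes. Homocitrate synthase (gene06190) had 328, 207 and 376 TPM in the mutant libraries and 9.77 TPM in the wild type. Homoaconitase (gene08231) had 26.8, 27.2 and 39.6 TPM in the mutant libraries and 0.88 TPM in the wild type, and homoisocitrate dehydrogenase (gene09531) had 268, 150 and 116 TPM in the mutant libraries and 10.3 TPM in the wild type. The later enzymes, aminoadipate reductase (gene01353) and saccharopine dehydrogenase (gene05290), lay above the wild type in all 3 mutant libraries with smallest log2 ratios of 1.18 and 1.57 and so were no members. A lower member of this list (gene05854) is a hit to a bacterial diaminopimelate enzyme of Rhizobium etli.

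The cross-pathway control protein hit (gene00597, cpcA), the counterpart of yeast GCN4 that switches on many amino acid genes in fungi, had 2060, 1775 and 2335 TPM in the mutant libraries and 427 TPM in the wild type. It was just past the 4-fold rule, with a smallest ratio of 4.16-fold, and missed it on the median-ratio scale. Single genes of other amino acid routes were also higher members and, like cpcA, were picked after their values were seen. Chorismate synthase (gene04493) of the aromatic route had 81.5, 87.8 and 125 TPM in the mutant libraries and 3.93 TPM in the wild type. Argininosuccinate synthase (gene10842) had 707, 134 and 233 TPM in the mutant libraries and 26.9 TPM in the wild type.

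Proteins of ribosome production were among the higher members. Small nucleolar ribonucleoproteins modify ribosomal RNA: the H/ACA type makes pseudouridine and the C/D type adds methyl groups. Hits to 3 of the H/ACA proteins were members. NHP2 (gene09064) had 136, 190 and 223 TPM in the mutant libraries and 2.90 TPM in the wild type, gar1 (gene01736) had 326, 377 and 330 TPM in the mutant libraries and 27.7 TPM in the wild type, and CBF5 (gene05268) had 164, 219 and 210 TPM in the mutant libraries and 21.3 TPM in the wild type. Their partner NOP10 (gene10626) was no member, at 310, 196 and 218 TPM in the mutant libraries and 175 TPM in the wild type.

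Of the C/D type, fibrillarin (gene09987) had 166, 170 and 307 TPM in the mutant libraries and 18.4 TPM in the wild type. NOP56 (gene00037) and NOP58 (gene02991) were members as well, and both were lost on the median-ratio scale. Of 60 tested ribosome biogenesis genes 9, or 15%, were higher and 1 lower, and of 95 ribosomal genes 6, or 6.32%, were higher and 0 lower, against the background of 8.58%. On the median-ratio scale the counts were 6 higher and 2 lower for ribosome biogenesis, and 4 higher and 1 lower for the ribosome. All 7357 tested genes gave 453 higher and 389 lower on that scale. In the wider functional class of translation, ribosome structure and biogenesis, 32 of 263 tested genes, or 12.2%, were higher and 0 lower.

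**Figure D5:**
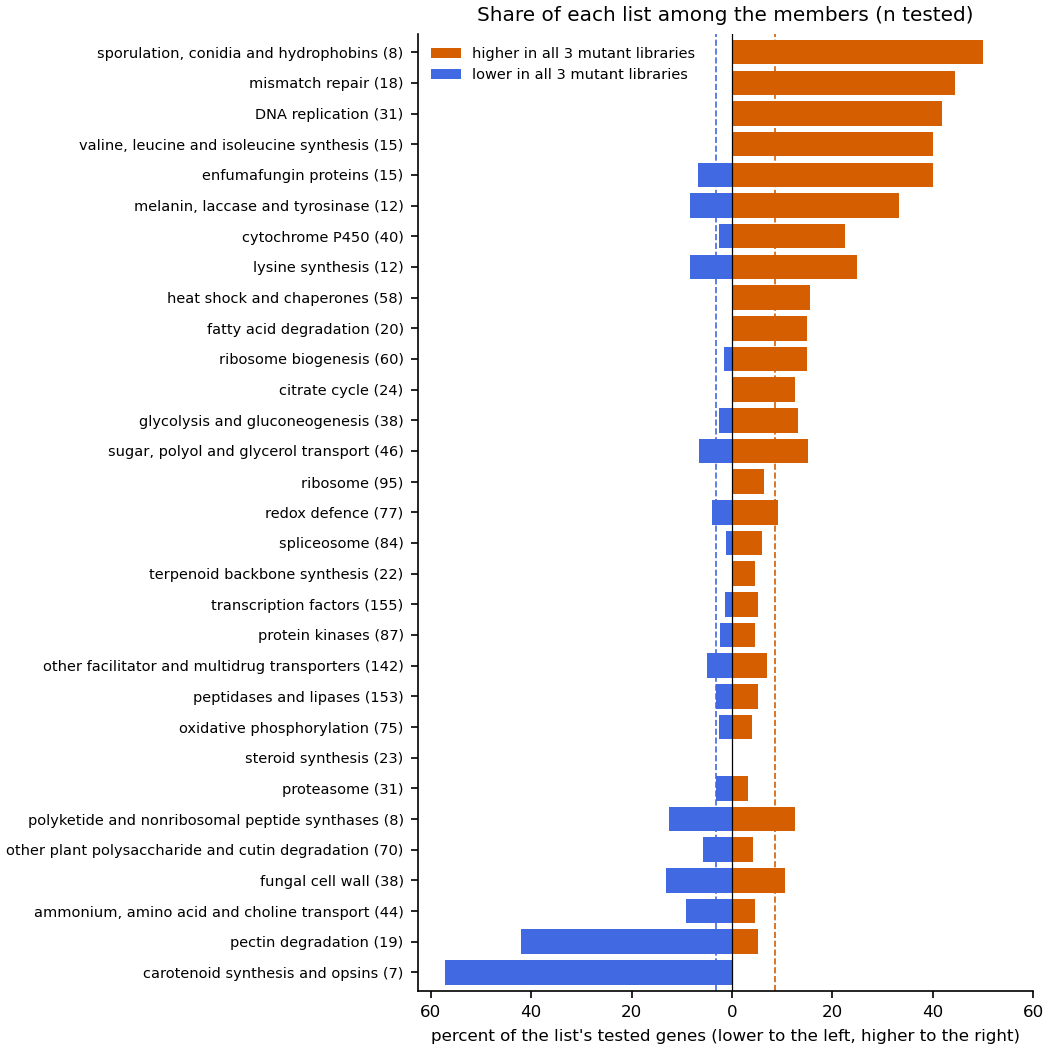
Percent of each list's tested genes that were higher (right) or lower (left) members, with the number of tested genes in brackets and dashed lines at the shares of all tested genes, 8.58% and 3.15%. Bars of the lists with 7 or 8 genes rest on few genes; carotenoid and pectin genes stand out to the left and sporulation, replication and branched-chain amino acid genes to the right.

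Carbon metabolism contributed some strongly differing single enzymes. Alcohol oxidase (gene00568, Komagataella phaffii, where it opens methanol use) had 1845, 1637 and 742 TPM in the mutant libraries and 7.01 TPM in the wild type, at least 105.8-fold higher. Malic enzyme (gene00473), which yields NADPH, had 332, 246 and 321 TPM in the mutant libraries and 4.64 TPM in the wild type. Phosphoenolpyruvate carboxykinase (gene09954), the entry to gluconeogenesis, had 305, 179 and 301 TPM in the mutant libraries and 6.07 TPM in the wild type. In contrast isocitrate lyase (gene08880), of the glyoxylate cycle, was a lower member, at 13.7, 17.9 and 13.1 TPM in the mutant libraries and 84.1 TPM in the wild type.

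Across the glycolysis and gluconeogenesis list 5 of 38 tested genes, or 13.2%, were higher and 1, or 2.63%, lower. In the citrate cycle 3 of 24, or 12.5%, were higher and 0 lower, beside 8.58% and 3.15% of all tested genes. By any amount, 18 of the 38 and 15 of the 24 lay above the wild type in all 3 mutant libraries, beside 47% of all tested genes. The list median log2 ratios were 0.70 and 1.26, beside 0.55 for all tested genes. Hexokinase hits went both ways: gene00481 had 204, 67.9 and 71.2 TPM in the mutant libraries and 11.7 TPM in the wild type, whereas gene01952 had 31.6, 11.5 and 7.37 TPM in the mutant libraries and 154 TPM in the wild type. Among single genes picked after their values were seen, glycerol kinase (gene02801) and 2 dihydroxyacetone kinase hits (gene04737, gene07392) were higher members. Glycerol kinase had 102, 102 and 20.9 TPM in the mutant libraries and 0.84 TPM in the wild type. Both AQY3 aquaglyceroporin hits that were members (gene04684, gene02130) lay the other way, the first at 2.87, 1.78 and 2.94 TPM in the mutant libraries and 30.2 TPM in the wild type.

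In the respiratory chain single subunits of complex I, which passes electrons from NADH to ubiquinone, lay at opposite ends. The 19.3 kDa subunit (gene04333, N. crassa) had 190, 137 and 154 TPM in the mutant libraries and 2.63 TPM in the wild type, and the 24 kDa subunit (gene00287) had 235, 227 and 196 TPM in the mutant libraries and 20.4 TPM in the wild type. A beta subcomplex subunit 9 hit (gene05345) had 345, 283 and 152 TPM in the mutant libraries and 2817 TPM in the wild type, and a 6.6 kDa subunit hit (gene10121) had 1272, 1373 and 935 TPM in the mutant libraries and 6411 TPM in the wild type. The last of these is not in the oxidative phosphorylation list, which held 75 tested genes with 3 higher and 2 lower members, shares of 4% and 2.67% beside 8.58% and 3.15% of all tested genes. The other lower member of that list was a probable NADH dehydrogenase (gene05840), at 3.83, 3.13 and 0.91 TPM in the mutant libraries and 375 TPM in the wild type, the deepest difference in the list.

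Redox genes also split. Manganese superoxide dismutase (gene10272), which turns superoxide into hydrogen peroxide in mitochondria, had 4608, 2413 and 516 TPM in the mutant libraries and 87.0 TPM in the wild type. A catalase hit (gene00218), which would break that peroxide down, had 2.64, 0.55 and 3.07 TPM in the mutant libraries and 339 TPM in the wild type. Mitochondrial peroxiredoxin-5 (gene00803) had 273, 164 and 242 TPM in the mutant libraries and 1908 TPM in the wild type. The counts were 7 higher and 3 lower of 77 tested genes, close to the background.

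Transport of nitrogen compounds gave members in both directions: of 44 tested genes in the ammonium, amino acid and choline list, 2, or 4.55%, were higher and 4, or 9.09%, lower, beside 8.58% and 3.15% of all tested genes. A low affinity ammonium transporter hit (gene10434) had 239, 173 and 242 TPM in the mutant libraries and 5.16 TPM in the wild type, and an MEP3 hit (gene00871) was higher too but missed the rule on the median-ratio scale. A second low affinity ammonium transporter hit (gene06096) was a lower member, at 0.27, 1.49 and 0.68 TPM in the mutant libraries and 11.1 TPM in the wild type. Ammonium transporter hits thus lay on both sides. Choline transporter hits (gene09408, gene09410), separated by an unnamed lower member (gene09409), were lower: gene09410 had 16.6, 12.5 and 12.8 TPM in the mutant libraries and 513 TPM in the wild type. Outside the list, 2 single enzymes that act on small nitrogen compounds were lower members. Cyanate hydratase (gene05525) had 212, 194 and 296 TPM in the mutant libraries and 2326 TPM in the wild type, and cyanide hydratase (gene06460) had 4.78, 9.42 and 20.7 TPM in the mutant libraries and 685 TPM in the wild type.

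Transporters of the facilitator family included some of the deepest lower members. The paaT hit (gene09898; in Penicillium a peroxisomal carrier) had 3.88, 40.5 and 7.83 TPM in the mutant libraries and 2835 TPM in the wild type, and the FUB11 hit (gene09553) had 0.96, 2.23 and 2.98 TPM in the mutant libraries and 170 TPM in the wild type. Counts over the list of 142 tested facilitator and multidrug transporters were 10 higher and 7 lower, or 7.04% and 4.93% beside 8.58% and 3.15% of all tested genes. On the median-ratio scale they were 8 higher and 14 lower, beside 453 higher and 389 lower of all 7357 tested genes. Of 40 tested cytochrome P450 genes, 9, or 22.5%, were higher and 1 lower, against 6 and 2 on the median-ratio scale, with the same 2 backgrounds. The 9 higher ones include efuG, efuH, the efuB hit and the DIT2 hit described above, so the list is not independent of the runs.

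Apart from enfumafungin, a run of lower members lay around a hit named as a nonribosomal peptide synthetase. Domains listed for it are an AMP-binding enzyme, a thioesterase and a phosphopantetheine attachment site, and its product is not known here. The apvA hit (gene07248, Aspergillus terreus) had 0.37, 0.24 and 0.07 TPM in the mutant libraries and 19.5 TPM in the wild type. Its neighbours from gene07247 to gene07251, hits to an oxidoreductase, a decarboxylase, a membrane protein and the efflux pump vrtL, were all lower members, and so was gene07254. The oxidoreductase (gene07247) had 1.48, 4.44 and 0.66 TPM in the mutant libraries and 85.0 TPM in the wild type. Nearby, gene07244 went the other way, at 120, 414 and 608 TPM in the mutant libraries and 12.4 TPM in the wild type.

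Members of one direction tended to have adjacent numbers. Of the higher members 17.4% stood next in number to another higher member, whereas 11.5% of the other tested genes stood next to one. Of the lower members 20.3% stood next to another lower member, against 3.54% of the other tested genes. Stretches with at least 3 members in 5 consecutive numbers numbered 16 on the higher side, with 58 genes, and 5 on the lower side, with 19 genes. Whether the numbers follow the order on the chromosomes is not stated in the sources used here. The longest on the higher side by number ran from gene08629 to gene08637 and held 5 members, with hits to a UDP-glucose epimerase (gene08630), a CCR4-NOT-type repressor subunit (gene08633, lost on the median-ratio scale), kes1 (gene08635) and a PARP-type zinc finger protein (gene08637). The epimerase hit had 629, 189 and 1410 TPM in the mutant libraries and 9.01 TPM in the wild type.

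The remaining stretches on the higher side mixed unrelated functions or unnamed genes. One, from gene10424 to gene10428, held hits to a tRNA thiolation protein, a glycine cleavage protein and the mitochondrial ribosomal protein MRP17 (gene10428), which had 387, 549 and 594 TPM in the mutant libraries and 20.7 TPM in the wild type. Another, from gene10433 to gene10438, held the ammonium transporter described above, a dioxygenase-type hit, a uracil phosphoribosyltransferase hit (gene10437) and an RNA-binding protein. The lower stretches beyond those described ran from gene03237 to gene03239, with a C6 transcription factor (gene03238) at 4.74, 3.84 and 4.69 TPM in the mutant libraries and 66.1 TPM in the wild type, and from gene06545 to gene06549, with a thaumatin-like hit (gene06546).

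Regulators gave few members. Of 155 tested transcription factors 8, or 5.16%, were higher and 2 lower, and of 87 kinases 4, or 4.60%, were higher and 2 lower, beside 8.58% and 3.15% of all tested genes. A hit to the GATA factor SRE1 (gene08139), which represses siderophore genes in related fungi, had 15.1, 26.5 and 60.8 TPM in the mutant libraries and 0.33 TPM in the wild type. A sterol regulatory element-binding protein hit (gene00668), with its best hit in Schizosaccharomyces pombe, had 325, 746 and 727 TPM in the mutant libraries and 57.0 TPM in the wild type, and missed the rule on the median-ratio scale. The kinase hit with the highest level among the members, HAL4 (gene07438), was lower, at 80.7, 113 and 121 TPM in the mutant libraries and 972 TPM in the wild type. The transcription factor efuD of the enfumafungin cluster (gene04140) was no member, as it had 58.3, 39.4 and 64.7 TPM in the mutant libraries and 13.6 TPM in the wild type.

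Chaperones gave 9 higher members of 58 tested genes, or 15.5%, and 0 lower, beside 8.58% and 3.15% of all tested genes. On the median-ratio scale 3 of the 58 were higher, beside 453 of the 7357 tested genes. In the functional class of posttranslational modification, protein turnover and chaperones, 28 of 347 tested genes, or 8.07%, were higher, near the background. The 9 higher members included the mitochondrial 10 kDa heat shock protein (gene06964), a DnaJ hit (gene04668) and the Hsp90 co-chaperone hit wos2 (gene07023, lost on the median-ratio scale). The 10 kDa protein had 188, 263 and 183 TPM in the mutant libraries and 15.7 TPM in the wild type.

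Some of the most extreme members have no functional name. The share of unnamed genes was 26.1% among higher members, 38.8% among lower members and 26.0% among all tested genes. Among the most abundant, gene08671, with a glucose-repressible Grg1 domain, had 19435, 14024 and 11362 TPM in the mutant libraries and 2432 TPM in the wild type, and missed the rule on the median-ratio scale. On the lower side gene04866 had 125, 698 and 251 TPM in the mutant libraries and 7980 TPM in the wild type, and gene02947, with a reverse transcriptase domain, had 112, 117 and 1722 TPM in the mutant libraries and 9568 TPM in the wild type. A methyltransferase hit (gene07758) had 3116, 593 and 334 TPM in the mutant libraries and was listed at 0 in the wild type.

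Very large differences were also seen for hits to ART2 and ART3, reading frames that in S. cerevisiae lie on the opposite strand of ribosomal RNA genes. An ART2 hit (gene02270) had 1633, 4350 and 4233 TPM in the mutant libraries and was listed at 0 in the wild type. A pair of ART2 hits with identical values in every library (gene02272, gene02275) had 5879, 6442 and 5170 TPM each in the mutant libraries and 234 TPM in the wild type, and a pair of ART3 hits (gene02273, gene02276), also identical, was listed at 0 in all mutant libraries and at 738 TPM in the wild type. Together these 5 genes made up 1.34%, 1.72% and 1.46% of TPM in the mutant libraries and 0.194% in the wild type. Where these genes lie in H. carpetanum is not known here. Their part in the other results was not tested beyond rescaling without these genes, which gave 637 higher and 227 lower members.

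Members also varied among the mutant libraries. Of the higher members 42.0% kept within 2-fold across the 3 mutant libraries, as did 56.0% of the lower members and 35.8% of all tested genes. The share of lower members cannot show that they were steadier, because the rule selects them for low mutant values. Their median was at most 5.82 TPM in any mutant library, and 8 were listed at 0 in all 3. The constant added to TPM narrows the ratios between such low values, including those between temperatures. Between the mutant at 19 °C and at 25 °C, a difference of 2-fold or more was seen upwards (19 °C over 25 °C) in 10.5% of higher members and downwards in 22.8%, near the 11.4% and 21.6% of all tested genes. Lower members leaned the other way, with 16.8% upwards and 10.3% downwards. The library nearest to the wild type was that at 19 °C for 276 higher members, that at 25 °C for 180 and that at day 14 for 175. For lower members it was day 14 for 104, 19 °C for 67 and 25 °C for 61. Over all tested genes the median log2 ratio was lowest at 19 °C, 0.31, and highest at day 14, 0.77, with 0.52 at 25 °C. Nearest libraries were not counted over all tested genes or on the median-ratio scale, so these counts may not be particular to the members.

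Wide ranges were not rare among the members. At least 4-fold apart among the mutant libraries were 99 higher members, or 15.7%, and 23 lower members, or 9.91%, beside 17.7% of all tested genes. The low mutant values of the lower members limit their share, as described above. Examples on the higher side follow. The ubiquitin ligase hit Nedd-4 (gene09835) had 7.43, 21.4 and 443 TPM in the mutant libraries and 0.11 TPM in the wild type. The unnamed gene06173 had 784, 6003 and 8786 TPM in the mutant libraries and 72.2 TPM in the wild type, while efuI (gene04131) had the opposite order, at 15829, 7402 and 2070 TPM in the mutant libraries and 205 TPM in the wild type.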

How the data were processed

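Total RNA was turned into sequencing libraries using a SMARTER kit for mRNA, as the labels' protocols state. The authors deposited TPM values for 10951 genes in 4 libraries, rounded to 2 decimals. Which aligner, read counter, assembly and gene models they used is not given in the sources used here. Depth is lost in TPM, and with it the counting error. Columns were matched to samples by library name, and titles gave the groups (1 library each).

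Ratios are log2 of TPM plus a pseudocount of 1, mutant over wild type. Folds given for single genes are ratios of TPM alone. The ratio nearest to 0 of the 3 had to be 2 or more, or -2 or less, in genes at 10 TPM or more in some library. No count model and no test were run. The working of the rule was checked on simulated libraries made from a single mutant library, with planted changes far past the threshold. Those libraries varied less than the real ones, so this check gives no error rate for the members. The members and the 31 gene lists were chosen with earlier results of these data known, and lists were revised after values were seen. A list catches genes by name or pathway entry, so a few hits may not belong to it.

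Genes were named by a rule that takes, per direction, the 15 largest ratios among named genes, the 10 most abundant, the 4 largest per list, the stretches, the genes at the threshold and 3 unnamed genes. Others, such as further members of the replication, amino acid, ribosome biogenesis and pectin lists, non-members given for contrast, uracil-DNA glycosylase, chorismate synthase, argininosuccinate synthase, cpcA, wos2, glycerol and dihydroxyacetone kinases, isocitrate lyase, the SREBP and Nedd-4 hits, gene07244 and the cluster-side YcaC hit, were added after their values were seen. Values were computed with Python 3.11.15, pandas 2.3.3 and numpy 2.4.6.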

Additional observations from a re-analysis of the deposited data

How the results depend on the processing

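The counts of 631 higher and 232 lower members were recomputed under 13 alternatives and 1 added after seeing the data. With a pseudocount of 5 they were 333 and 151. A 2-fold threshold gave 1686 and 660, and an 8-fold threshold 225 and 89. Requiring 50 TPM in some library left 136 lower members. Rescaling by the median ratio gave 389 lower members. Leaving out 1 mutant library gave between 786 and 966 higher members and between 287 and 355 lower ones; without the mutant library at 19 °C there were 966 higher, and without that at day 14 there were 355 lower. A pseudocount of 0.1, no filter or one of 1 TPM, rescaling without the 20 most abundant genes, leaving out genes listed at 0, and rescaling without the ART2 and ART3 hits moved both counts by less than 1.5 times. Of the values of 238 genes chosen by rule, 3010 kept their side of the threshold, 213 no longer passed it, 29 newly passed it and 0 changed sign. Many of the 3010 were fixed in advance. A 2-fold threshold, a pseudocount of 0.1, another filter or fewer mutant libraries only loosen the rule or drop genes, so no member could fail. Of the 213, 104 failed at 8-fold, 67 with a pseudocount of 5 and 29 after rescaling by the median ratio. The rest were 10 without the 20 most abundant genes and 3 without the ART2 and ART3 hits. No paired analysis was possible because each group has 1 library. With TPM and 1 library per group, neither depth nor replicate error limits can be given.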
